A study of Homo sapiens with 4 samples.

Results

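RNA-seq of Huh7 cells, a cell line from a human hepatocellular carcinoma, was examined for 9 genes, namely MUC13, TM4SF20, TM4SF4, TM4SF5, MUC1, CDH17, LGALS4, VIL1 and TSPAN8. They are mucins, members of the TM4SF family and genes of the intestinal epithelium. All 9 were found by symbol among the 18806 genes of the table. The group was selected on TPM values of this experiment, since MUC13 and TM4SF20 were among the genes with the largest difference between METTL16 KO and control cells. That contrast is therefore described for the 9 genes and not tested.

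All cells were grown from 1 single clone of Huh7 that carried Cas9 and were infected with a lentiviral guide RNA and selected with hygromycin B. The control group received a non-targeting guide (sgNS, 2 libraries, genotype WT) and the other a guide against METTL16 (METTL16 KO, 2 libraries). METTL16 is an RNA methyltransferase. In the sample labels the latter is named a METTL16 knockdown, with titles that read sgMETTL16, and METTL16 KO is the name used in the paper. The numbers in the titles were read as replicates of a single guide. Whether clones were picked again after infection is not given in the sources used here. RNA was measured in bulk, so fewer cells that express a gene and less RNA per cell cannot be told apart. The unit is TPM, a level per length of transcript that sums to 1000000 in each library. METTL16 was listed at 26.3 and 25.1 TPM with sgNS against 17.6 and 18.8 TPM with METTL16 KO, and its log2 fold change was -0.50 with a standard error of 0.0617 and a limma adjusted p of 2.4e-05. Protein was not measured in these libraries, and since TPM holds no counts of reads the depth is unknown. The hepatocyte markers were present, with ALB between 7437 and 10079 TPM and all 13 listed markers above 1 TPM in the 4 libraries. Of 10 blood markers, LYZ (909 to 1553 TPM), CD68 (2.72 to 8.86 TPM) and CD14 (0.91 to 1.66 TPM) had a mean of at least 1 TPM, and of 10 endothelial and stromal markers PECAM1 (2.7 to 5.14 TPM) and PDGFRB (0.76 to 1.65 TPM) did. The other markers of both lists were at 1.34 TPM or less in every library, among them PTPRC, CD3E, VWF and CDH5.

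Mucins are heavily O-glycosylated proteins that cover and protect epithelial surfaces. MUC13 and MUC1 are anchored in the cell membrane, and MUC13 is known from the gut. The TM4SF (L6) family holds small membrane proteins that cross the membrane 4 times and resemble the tetraspanins, to which TSPAN8 belongs. CDH17 (liver-intestine cadherin) joins intestinal cells to each other, LGALS4 is a galectin, a lectin that binds galactosides, and VIL1 (villin) bundles actin in the microvilli of the brush border. Several of these genes are also active in the fetal liver, the bile duct or in tumors of the liver.

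The stretches just before the annotated starts of MUC13 and TM4SF20, which had the largest rises of the 9, and of TM4SF4 and TM4SF5, 2 relatives of TM4SF20 with opposite differences, are shown because this is where factors that switch a gene on may bind. The sequences are from RefSeq on GRCh38.p14, each with 250 bases before the start and 50 from it on, 5′ to 3′ on the strand of the gene. They lie at chr3:124934702-124935001 (minus strand) for MUC13, chr2:227379257-227379556 (minus strand) for TM4SF20, chr3:149474447-149474746 (plus strand) for TM4SF4 and chr17:4771636-4771935 (plus strand) for TM4SF5. Capitals mark matches to any of 7 short motifs.
MUC13: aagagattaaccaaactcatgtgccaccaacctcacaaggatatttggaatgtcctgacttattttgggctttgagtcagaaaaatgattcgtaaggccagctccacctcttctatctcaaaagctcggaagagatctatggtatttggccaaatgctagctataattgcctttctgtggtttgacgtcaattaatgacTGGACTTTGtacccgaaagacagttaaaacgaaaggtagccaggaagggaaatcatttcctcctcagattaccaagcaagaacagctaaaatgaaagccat
TM4SF20: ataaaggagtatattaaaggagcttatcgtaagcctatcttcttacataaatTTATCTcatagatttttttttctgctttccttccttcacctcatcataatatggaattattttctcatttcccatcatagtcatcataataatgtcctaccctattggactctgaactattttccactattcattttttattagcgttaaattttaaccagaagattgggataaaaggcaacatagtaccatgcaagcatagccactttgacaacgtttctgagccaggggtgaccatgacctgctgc
TM4SF4: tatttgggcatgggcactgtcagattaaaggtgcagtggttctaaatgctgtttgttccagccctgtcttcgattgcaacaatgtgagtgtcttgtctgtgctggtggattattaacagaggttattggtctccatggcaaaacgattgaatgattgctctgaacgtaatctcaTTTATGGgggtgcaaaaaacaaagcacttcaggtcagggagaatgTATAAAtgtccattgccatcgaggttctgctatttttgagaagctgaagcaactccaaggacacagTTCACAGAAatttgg
TM4SF5: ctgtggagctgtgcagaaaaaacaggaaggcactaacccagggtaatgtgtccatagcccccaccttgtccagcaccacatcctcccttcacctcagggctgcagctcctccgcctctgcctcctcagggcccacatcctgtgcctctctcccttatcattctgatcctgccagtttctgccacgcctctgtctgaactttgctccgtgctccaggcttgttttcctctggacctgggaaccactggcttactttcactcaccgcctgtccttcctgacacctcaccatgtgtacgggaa

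The motifs were searched on both strands. The TATA box was spelled TATAAA, the HNF4 motif CAAAGTCCA, the CDX motif TTTATNG, the motif of GATA factors AGATAA and the STAT motif TTCNNNGAA, and longer motifs of HNF1 and NF-kB completed the set. The start is counted as base 1 and the base before it as base -1. In MUC13 the capitals are the HNF4 letters on the opposite strand, from base -51 to -43. In TM4SF20 they are the GATA letters on the opposite strand, from -198 to -193. TM4SF4 held the CDX letters from -76 to -70, the TATA box from -31 to -26 and the STAT letters from base 36 to 44, and TM4SF5 held none of the 7. Of all 35116 windows of this length, 0.384% held the HNF4 letters, 10.3% the GATA letters, 9.73% the CDX letters, 11.5% the TATA box, 7.66% the STAT letters, 1.4% the NF-kB letters and 0.0057% the HNF1 letters. The GC content was 35% for TM4SF20, 41.0% for MUC13, 42.7% for TM4SF4 and 56.7% for TM4SF5, against a median of 58.7% over all windows. Windows were matched for 7 of the 9 genes. Of the others with a window, MUC1 held the TATA box before both of its annotated starts, and LGALS4 and TSPAN8 held none of the 7. VIL1 and CDH17 were not among the genes matched. A match of letters is a description and does not show that a factor binds there.

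In GENCODE release 44 on GRCh38, MUC13 spans 124905442 to 124953819 of chromosome 3, minus strand. It was listed at 1.94 and 1.66 TPM with sgNS against 112 and 110.0 TPM with METTL16 KO. The mean was 61.7 times higher in METTL16 KO, with a log2 fold change of 5.87 on the log2(TPM + 0.1) scale (standard error 0.0803). In sgNS, MUC13 stood above 40.8% and 40.1% of the 18806 genes of the table, and in METTL16 KO above 91.9% and 91.7%. By the size of its rise it was number 5 of the 11971 genes tested. The RefSeq start shown above, at 124934751, lies inside this span.

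TM4SF20 lies on the minus strand of chromosome 2 from 227362038 to 227381995. Its sgNS values were 0.05 and 0.1 TPM, close to the step of 0.01 to which the table is rounded, and those of METTL16 KO were 15.8 and 15.0 TPM. Both METTL16 KO libraries stood far above both sgNS libraries. The log2 fold change was 6.49 (standard error 0.207), number 3 of the genes tested, but the size depends on the pseudocount and was 3.93 with a pseudocount of 1 and 7.57 with 0.01. In METTL16 KO the level of TM4SF20 was still below those of TM4SF1, TM4SF4 and TM4SF5.

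**Figure D1:**
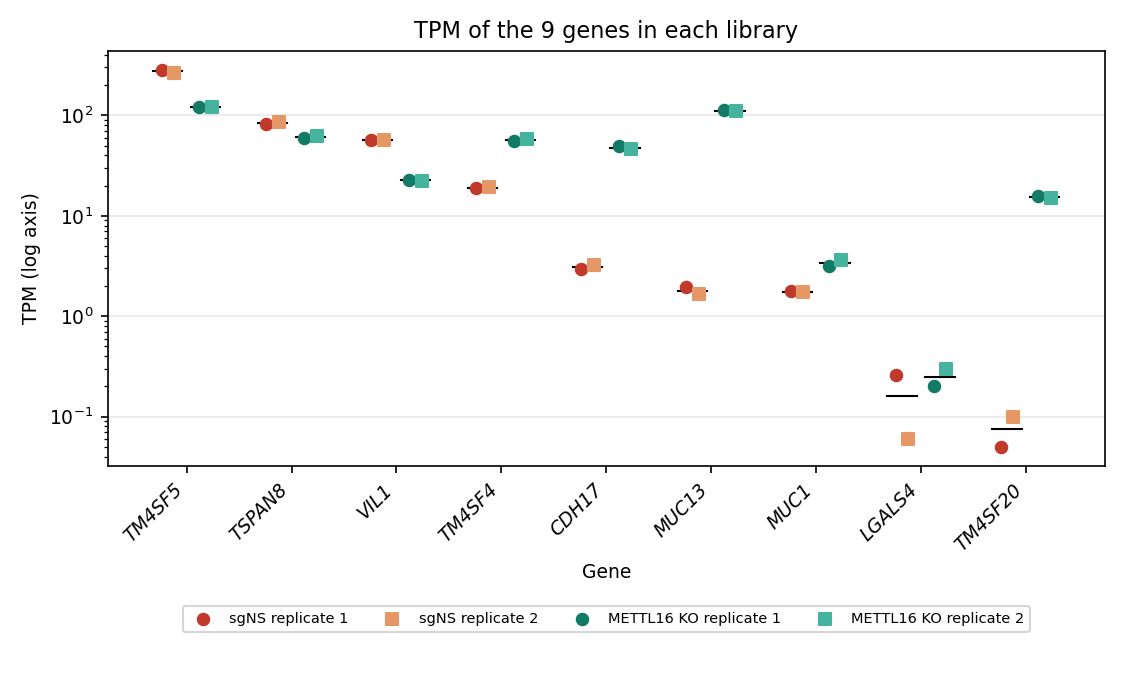
TPM of the 9 genes (log axis) in the 2 sgNS libraries (red and orange) and the 2 METTL16 KO libraries (dark and light green), with black lines at the group means and the genes in order of their sgNS mean. MUC13, TM4SF20, CDH17, TM4SF4 and MUC1 stood higher in METTL16 KO, TM4SF5, TSPAN8 and VIL1 lower, and the groups of LGALS4 overlapped.

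The members of the TM4SF family differed in direction. TM4SF4, which lies on the plus strand of chromosome 3 from 149474697 to 149503394 and codes for a glycoprotein known from intestine and liver, was listed at 18.8 and 19.5 TPM with sgNS against 56.1 and 58.0 TPM with METTL16 KO. Its mean was 2.99 times higher in METTL16 KO (log2 fold change 1.57, standard error 0.0524). TM4SF5, on the plus strand of chromosome 17 from 4771884 to 4783213 and known for its overexpression in liver tumors, went the other way, with 285 and 267 TPM in sgNS against 122 and 121 TPM after METTL16 KO. Its mean was 2.27 times higher in sgNS (log2 fold change -1.18, standard error 0.0396). Neither gene had overlapping groups.
Within a library, TM4SF5 was listed at 15.2 and 13.7 times the level of TM4SF4 in sgNS and at 2.17 and 2.09 times in METTL16 KO. These ratios are taken between 2 genes of 1 library and do not change when a whole library is multiplied by a factor. Quantile normalization can change them. TM4SF1, the most abundant gene of the family and not among the 9, was listed at 412 and 422 TPM with sgNS against 345 and 355 TPM with METTL16 KO, with a log2 fold change of -0.25 and a limma adjusted p of 2.7e-05, below the fold threshold used here. TM4SF18 and TM4SF19 were listed at 0 to 0.26 TPM. Summed over TM4SF1, TM4SF4, TM4SF5 and TM4SF20, the family held 716 and 708 TPM in sgNS and 538 and 549 TPM in METTL16 KO. TM4SF4 and TM4SF20 made up 2.62% and 2.76% of that sum in sgNS and 13.4% and 13.3% in METTL16 KO, while the share of TM4SF5 was 39.8% and 37.7% in sgNS and 22.6% and 22.1% in METTL16 KO.

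CDH17 was the member with the next largest rise after TM4SF20 and MUC13, number 30 of the genes tested. It was listed at 2.93 and 3.26 TPM with sgNS against 49.4 and 46.1 TPM with METTL16 KO, 15.4 times higher on average (log2 fold change 3.91, standard error 0.0796). VIL1, on the plus strand of chromosome 2 from 218419121 to 218453295, was listed at 57.3 TPM with sgNS in both libraries against 22.7 and 22.2 TPM with METTL16 KO, so that its mean was 2.55 times higher in sgNS (log2 fold change -1.35, standard error 0.0494). Its gene overlaps USP37 on the opposite strand. The order of these intestinal markers was thus opposite in the groups. VIL1 was listed at 19.6 and 17.6 times the level of CDH17 in sgNS and at 0.46 and 0.482 times in METTL16 KO.

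MUC1, on the minus strand of chromosome 1 from 155185824 to 155192916, was listed at 1.78 and 1.74 TPM with sgNS against 3.17 and 3.66 TPM with METTL16 KO (log2 fold change 0.91, standard error 0.152). MUC13 and MUC1 were at like levels in sgNS, with ratios of 1.09 and 0.954, whereas MUC13 was at 35.4 and 30 times the level of MUC1 in METTL16 KO. TSPAN8, a tetraspanin of gut and tumor cells on the minus strand of chromosome 12 from 71125085 to 71441898, was listed at 82.3 and 85.5 TPM with sgNS against 59.3 and 62.5 TPM with METTL16 KO (log2 fold change -0.46, standard error 0.0458). The annotated gene overlaps LGR5 on the opposite strand. LGALS4, on the minus strand of chromosome 19 from 38801671 to 38812945, was listed at 0.26 and 0.06 TPM with sgNS against 0.2 and 0.3 TPM with METTL16 KO. Its groups overlapped, it was below the filter of a mean of 1 TPM, and no fold is given.

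Of the 9 genes, 8 passed that filter, and TM4SF20 did so only through the METTL16 KO libraries. In all 8 the libraries of the groups did not overlap, 5 with METTL16 KO above and 3 with METTL16 KO below, but 87.4% of all genes tested had groups that do not overlap, 56.8% with METTL16 KO above and 30.7% below. For all other genes, a call means an adjusted p under 0.05 from limma (Benjamini-Hochberg over the 11971 genes) together with a log2 fold change of 1 or more in either direction. Over all genes 7.70% passed these thresholds as higher and 3.77% as lower. MUC13, TM4SF20, CDH17 and TM4SF4 lay past the upper and TM4SF5 and VIL1 past the lower thresholds, from which nothing is read since the contrast chose the group. The log2 fold changes of all tested genes had a median of 0.163, against which the changes are to be read, and median-ratio scaling moved it to -0.0016.

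**Figure D2:**
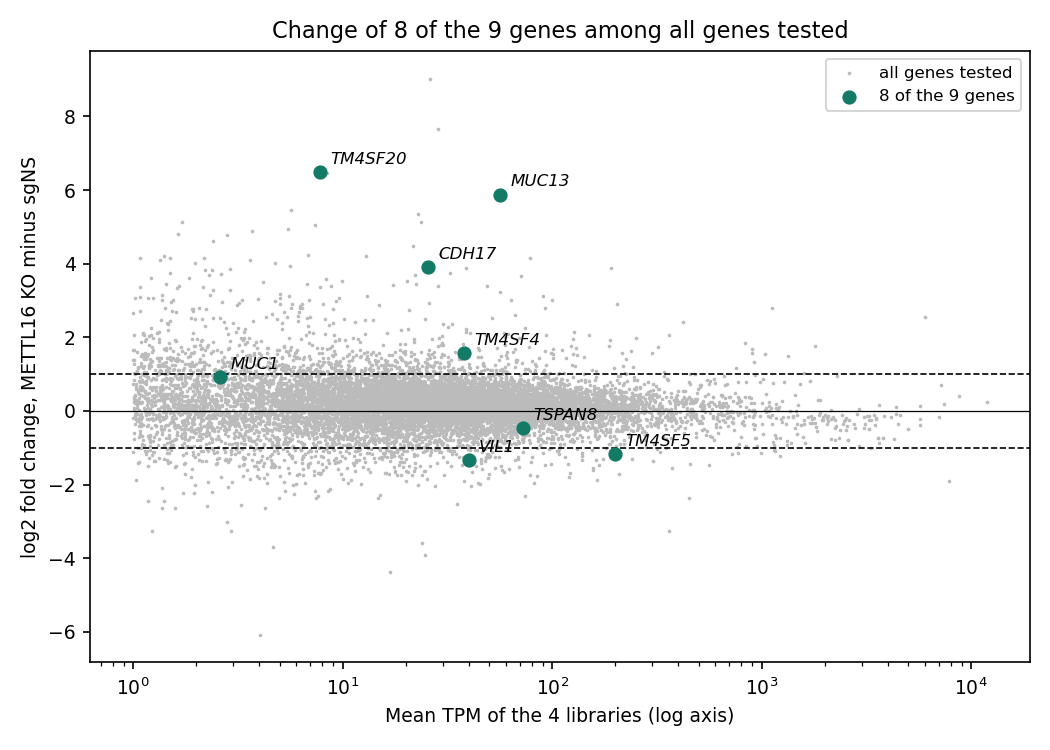
Log2 fold change (METTL16 KO minus sgNS, on log2(TPM + 0.1)) against the mean TPM of the 4 libraries (log axis) for the 11971 genes tested (grey) and for 8 of the 9 genes (green), with dashed lines at 1 and -1. TM4SF20, MUC13 and CDH17 lie among the largest rises, TM4SF5 and VIL1 below the lower line, and MUC1 and TSPAN8 between the lines.

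The order of the levels also differed between the groups. In sgNS it ran from TM4SF5 (276 ± 13.1 TPM, SD, n = 2) over TSPAN8 (83.9 ± 2.31), VIL1 (57.3 ± 0.00707), TM4SF4 (19.1 ± 0.502) and CDH17 (3.09 ± 0.233) to MUC13 (1.8 ± 0.198) and MUC1 (1.76 ± 0.0283), with LGALS4 and TM4SF20 near 0. The levels of MUC13 and MUC1 overlapped, as did those of LGALS4 and TM4SF20. In METTL16 KO the order was TM4SF5 (121 ± 0.212 TPM, SD, n = 2), MUC13 (111 ± 1.5), TSPAN8 (60.9 ± 2.27), TM4SF4 (57.1 ± 1.32), CDH17 (47.8 ± 2.32), VIL1 (22.5 ± 0.368), TM4SF20 (15.4 ± 0.573), MUC1 (3.42 ± 0.346) and LGALS4. TSPAN8 and TM4SF4 were 1.29 TPM apart at their nearest libraries, less than the SD of TSPAN8, and so were not separated beyond their spread.

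The genes next to MUC13 and TM4SF20 on the chromosome were examined to see how far the difference reached. ITGB5, an integrin subunit that ends 4.0 kb from MUC13, was listed at 58.2 and 55.5 TPM with sgNS against 40.2 and 41.8 TPM with METTL16 KO, with a log2 fold change of -0.47. HEG1, a membrane protein with a mucin-like stretch that lies 11.9 kb away on the other side, rose from 21.5 and 21.1 TPM to 67.1 and 68.5 TPM, with a log2 fold change of 1.67 and a limma adjusted p of 4.1e-10. Beyond them, UMPS had a log2 fold change of 0.43 and SLC12A8 of -0.24. Next to TM4SF20, MFF (4.2 kb away) had 0.27 and AGFG1 (90.2 kb) had 0.15, COL4A3 was listed at 0.05 TPM or less, and the thiamine transporter gene SLC19A3 (301.8 kb) rose from 21.4 and 21.5 TPM to 42.5 and 43.9 TPM, with a log2 fold change of 1.01 and a limma adjusted p of 2.8e-08. The nearest neighbours, ITGB5 (lower, limma adjusted p of 6.6e-06) and MFF (higher, 0.00059), were thus not called only because they missed the fold threshold. TM4SF4 lies 97.0 kb from TM4SF1 and 140.3 kb from TM4SF18 on chromosome 3, and these 3 relatives differed in direction and level as given above.

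**Figure D3:**
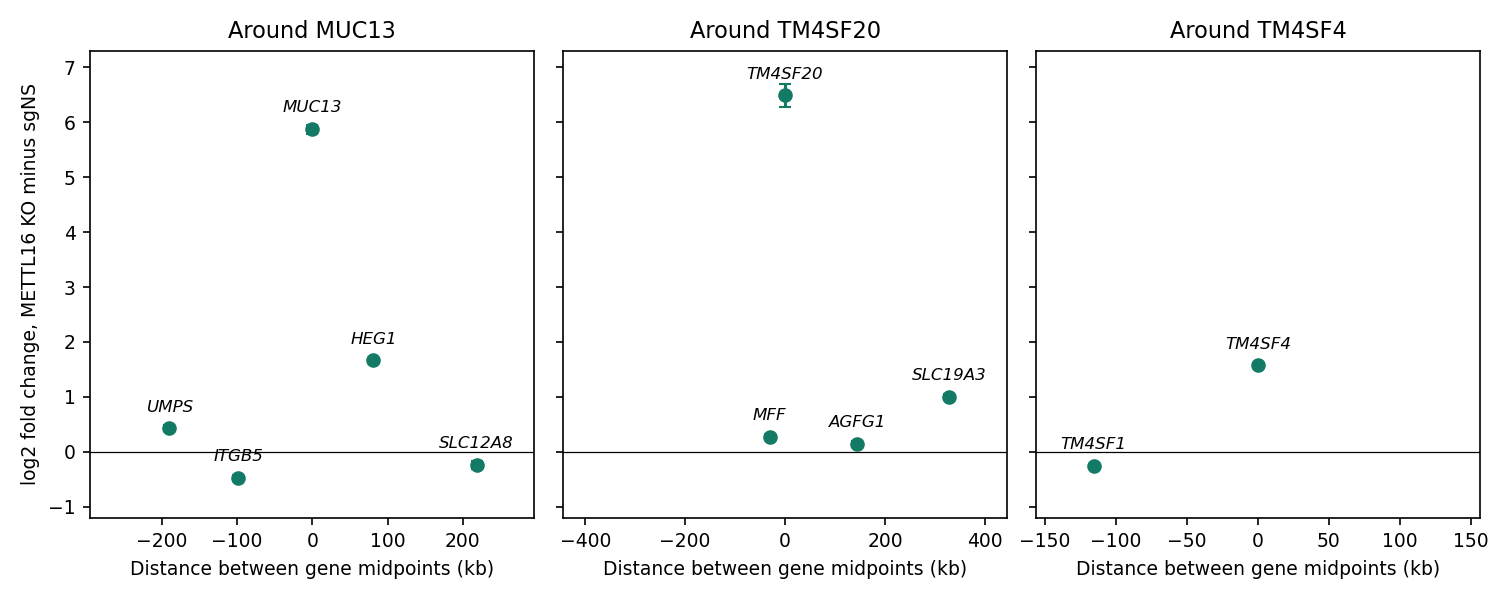
Log2 fold change (METTL16 KO minus sgNS) with its standard error for the tested genes around MUC13, TM4SF20 and TM4SF4, against the distance between gene midpoints in kb. MUC13 (5.87) and TM4SF20 (6.49) were chosen for their large rises, so nothing is read from their standing above their neighbours. Of these neighbours, HEG1 (1.67) and SLC19A3 (1.01) were called higher in METTL16 KO.

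Genes related to the 9 were then examined in lists written by hand with earlier results of these data known. The 9 genes themselves were left out of each count. The counts are to be read against the 7.70% higher and 3.77% lower over all genes tested. In the list of intestinal epithelial genes, 25 of 58 other genes passed the filter, and 11 were higher and 3 lower in METTL16 KO past both thresholds in limma, while 11 passed neither. Their median log2 fold change was 0.85 against 0.163 over all genes. Of the 11 rises, 3 (CA4, SI and EPHB3) had an sgNS mean below 1 TPM and passed the filter only through METTL16 KO, where they were high, so that the filter favoured a rise. The largest rise was in GUCY2C, the receptor guanylyl cyclase of the gut for guanylin, from 1.06 and 0.94 TPM to 45.2 and 44.1 TPM (log2 fold change 5.35, adjusted p of 1.1e-11). CA4, a membrane-bound carbonic anhydrase, was listed at 0.18 and 0 TPM with sgNS against 2.57 and 3.25 TPM with METTL16 KO. SI (sucrase-isomaltase), a disaccharidase of the brush border, was listed at 0.22 and 0.32 TPM against 2.74 and 2.81 TPM.
Named after their values were seen, FABP1, a fatty acid-binding protein of gut and liver, rose from 796 and 834 TPM to 2756 and 2832 TPM, and the trefoil factor TFF2 from 16.6 and 15.7 TPM to 39.4 and 41.7 TPM. The 3 falls were in SPINK4, a secreted protein of goblet cells, in LGR5, a receptor of intestinal stem cells, and in AGR2, which helps to fold mucins. SPINK4 was listed at 27.4 and 37.3 TPM with sgNS against 1.6 and 1.31 TPM with METTL16 KO (log2 fold change -4.37, adjusted p of 8.2e-10), LGR5 at 13.7 and 14.4 against 5.39 and 5.49 TPM, and AGR2 at 10.8 and 11.6 against 5.15 and 5.67 TPM. Of the 33 other genes below the filter, 10 were listed at 0 in every library, among them KRT20, GPA33, CEACAM6 and GUCA2A, and none exceeded 1.88 TPM in any library. TFF1 and EPHB3 were among the 11 rises but not with either other scaling, an unmoderated linear model called neither these nor CA4, and AGR2 was not among the falls without sgNS replicate 2 or without METTL16 KO replicate 1.

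Of 28 transcription factors of gut and liver, 22 passed the filter, of which 9 rose and 0 fell past both thresholds in limma. At an unadjusted p under 0.05 with no fold threshold, 16 were higher and 3 lower, and an unmoderated linear model also called 0 lower. Their median log2 fold change was 0.8. KLF4 rose from 2.02 and 1.91 TPM to 18.4 and 16.05 TPM (log2 fold change 3.06, adjusted p of 1.2e-09 from limma), KLF5 from 6.04 and 5.76 TPM to 44.1 and 47.2 TPM (2.93, adjusted p of 6.6e-11) and ELF3 from 22.1 and 24.4 TPM to 162 and 162 TPM (2.80, adjusted p of 1.6e-11). All 3 are factors of epithelial differentiation. CDX2, a factor that specifies the intestine and is also on the intestinal list, was next and is named after its values were seen. It rose from 19.4 and 18.3 TPM to 109 and 120.2 TPM (log2 fold change 2.60, adjusted p of 5.1e-11). CDX1, its relative, was listed at 0 to 0.05 TPM. HNF4A, whose letters were found before MUC13, had 172 and 160.0 TPM in sgNS and 266 and 273 TPM with METTL16 KO, and its log2 fold change of 0.70 did not reach the fold threshold.

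**Figure D4:**
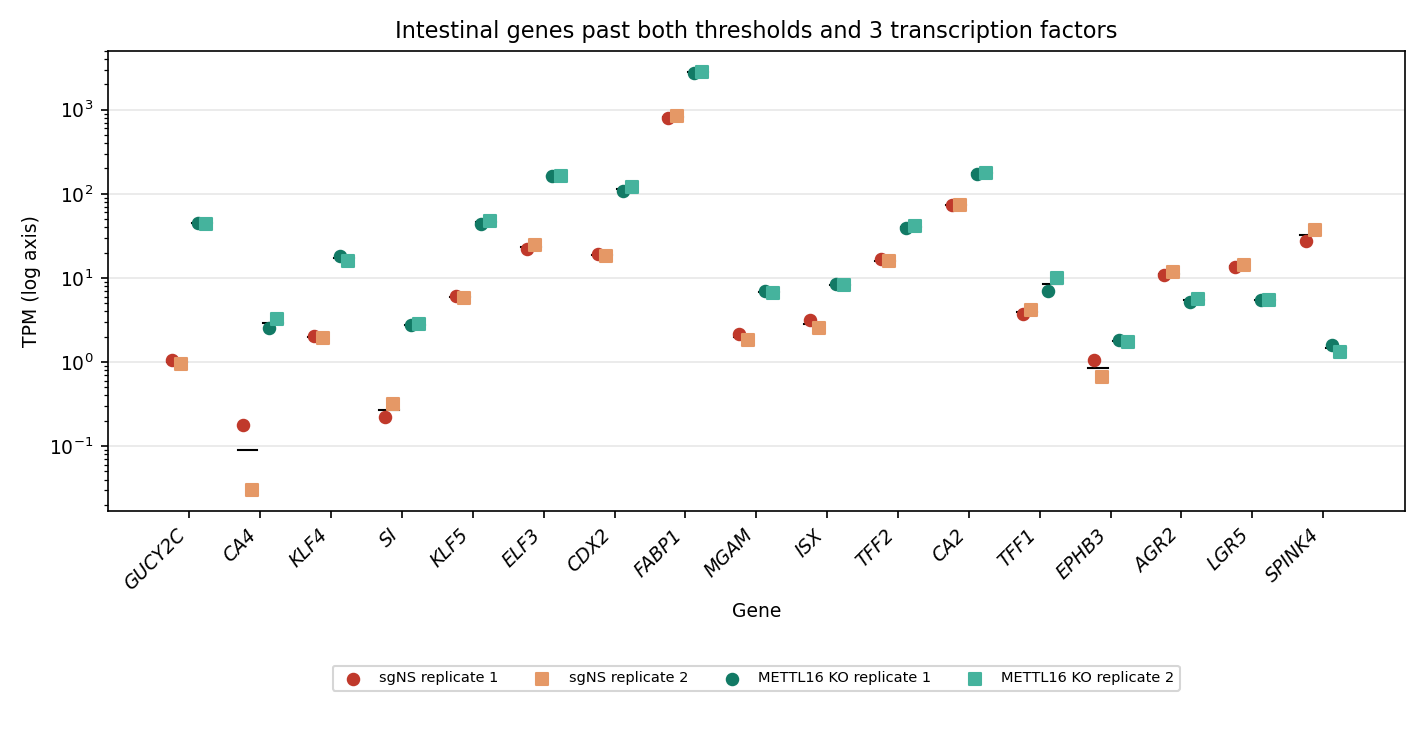
TPM (log axis) in each library of the intestinal genes past both thresholds other than the 9 genes and of the 3 transcription factors with the largest rises, in order of their log2 fold change, with black lines at the group means. GUCY2C, CA4 and KLF4 stand at the left with the largest rises and SPINK4 at the right with the largest fall. The CA4 value of 0 in sgNS replicate 2 is drawn at the foot of the axis, at 0.03.

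Among 17 genes of the mucin list found in the table, 6 were listed at 0 in all libraries, including the secreted mucins MUC2 and MUC5AC. Besides MUC13 and MUC1, 5 passed the filter, namely MUC3A, MUC15, OVGP1, CD164 and MCAM. Of these, OVGP1, CD164 and MCAM carry no MUC symbol. Of the 5 genes, 1 rose and 0 fell past both thresholds in limma. At an unadjusted p under 0.05, 2 were lower, and an unmoderated linear model called 0 lower. The rise was in MUC3A, a membrane mucin of the gut, from 2.79 and 3.01 TPM to 6.84 and 6.66 TPM (log2 fold change 1.19, adjusted p of 2.5e-06 from limma). Reads of MUC3A may be shared with its near copy MUC3B, which is not analysed here. With quantile normalization or a pseudocount of 1 MUC3A no longer reached the fold threshold. Of the enzymes that build the O-glycans of mucins, 18 of 32 passed the filter, and 3 rose and 2 fell. GALNT4, which starts such chains, rose from 12.8 and 13.1 TPM to 46.8 and 47.0 TPM (log2 fold change 1.85), GALNT12 was listed at 0.94 and 0.59 against 1.67 and 2.41 TPM (1.32), and the branching enzyme GCNT1 at 9.54 and 9.83 against 20.4 and 19.3 TPM (1.03). GCNT3, a branching enzyme of mucin-producing tissues, fell from 15.4 and 13.1 TPM to 4.82 and 4.57 TPM (log2 fold change -1.58), and GALNT5 went from 10.7 and 11.2 TPM to 5.6 and 4.67 TPM (-1.08). GALNT12 passed the filter only through METTL16 KO, so its count among the rises was favoured by the filter. The adjusted p-values of the other 4 from limma were between 4.5e-10 for GALNT4 and 3e-06 for GALNT5. GALNT4 lies within the read-through gene POC1B-GALNT4 on the same strand, and reads could be split between them. GCNT1 was not called with either other scaling or without METTL16 KO replicate 1, nor GALNT12 with quantile normalization, a pseudocount of 1 or an unmoderated linear model. The median log2 fold change of the enzymes was -0.07, below that of all genes.

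The relatives of TSPAN8, LGALS4 and VIL1 were mixed. Of 21 other tetraspanins that passed the filter, 0 rose and 2 fell past both thresholds in limma, and the median of their log2 fold changes was 0.01. At an unadjusted p under 0.05, 5 were higher and 8 lower, and an unmoderated linear model called 0 higher. With median-ratio scaling 5 fell and with quantile normalization 4, with TSPAN9 and UPK1A added in both and TSPAN14 in the former. TSPAN4 fell from 29.8 and 28.9 TPM to 8.52 and 8.96 TPM (log2 fold change -1.73, adjusted p of 2.4e-09), and TSPAN31 from 28.6 and 29.0 TPM to 9.63 and 10.2 TPM (-1.53, adjusted p of 5.6e-09). Of 5 galectins other than LGALS4, LGALS3 rose from 22.8 and 21.4 TPM to 99.2 and 92.4 TPM (log2 fold change 2.11, adjusted p of 1.6e-10), and LGALS2 fell from 66.4 and 64.8 TPM to 25.1 and 27.4 TPM (-1.32, adjusted p of 5.3e-09). The median of the 5 was 0.77.
Of 22 other genes of the villin family and the brush border, 2 rose and 3 fell, with a median of -0.06. GSN (gelsolin), an actin-severing relative of villin, rose from 119 and 112 TPM to 361 and 359 TPM (log2 fold change 1.64, adjusted p of 6.6e-11), and PDZK1, a scaffold protein of the brush border, from 12.4 and 12.3 TPM to 41.2 and 36.8 TPM (1.65, adjusted p of 4e-09). EPS8L3 fell from 27.9 and 27.4 TPM to 10.4 and 10.7 TPM (log2 fold change -1.38). EPS8L2 had a log2 fold change of -1.02 and CAPG, another relative of villin, of -1.01. Both lay so near the fold threshold that leaving out METTL16 KO replicate 2 brought them to -0.92 and -0.94 and left 1 of the 3 falls, and leaving out sgNS replicate 1 or 2 removed EPS8L2 or CAPG. Without METTL16 KO replicate 1 the tetraspanins had 4 falls, with TSPAN9 and UPK1A added, and the galectins had 2 rises, with LGALS1 added. LGALS1 was also added without sgNS replicate 2, and without METTL16 KO replicate 2 GALNT5 was lost from the falls of the O-glycan enzymes. Whether reads were assigned by strand is not stated, and other genes of the table lie on the opposite strand of SPINK4 (BAG1), TSPAN31 (CDK4 and AGAP2), GSN (RAB14), EPS8L3 (GSTM5), EPS8L2 (DEAF1), GCNT1 (PRUNE2) and GCNT3 (GTF2A2).

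**Figure D5:**
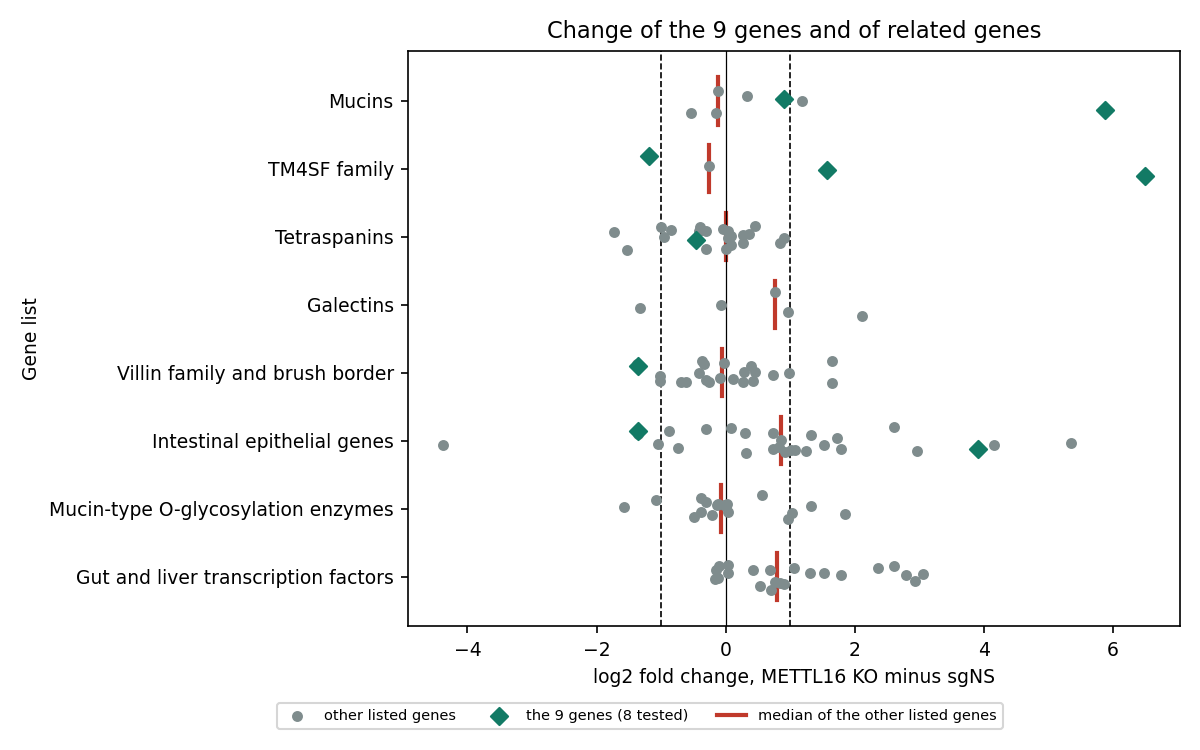
Log2 fold change (METTL16 KO minus sgNS) of the tested genes in each list, with the 9 genes as green diamonds, the other listed genes as grey points, their median as a red line and dashed lines at 1 and -1. The medians of the intestinal genes (0.85), the transcription factors (0.8) and the galectins (0.77) lie to the right of those of the other lists.

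Over all 8 lists, 117 genes other than the 9 were tested, of which 25 were higher and 11 lower past both thresholds. Over all genes tested the shares were 7.70% and 3.77%. Of the 25, 4 passed the filter only through the METTL16 KO libraries, namely CA4, SI, EPHB3 and GALNT12. Markers of bile duct cells, which also carry several of the 9 genes, were looked at beside them. Their summed level was 843 and 873 TPM in sgNS and 2049.7 and 2102 TPM in METTL16 KO. Most of this sum was CD24, at 515 and 543 TPM in sgNS and 1506 and 1558 TPM in METTL16 KO. ANXA4 and CD24 were higher and SPP1 was lower. The defining keratins KRT7 and KRT19 were at 0.21 TPM or less in every library. Of the 13 bile duct markers, 7 passed the filter, and 3 rose and 1 fell past both thresholds. The summed hepatocyte markers were at 32948 and 32989.6 TPM with sgNS against 39353 and 38947 TPM with METTL16 KO, with AFP, FGB, FGA and FGG higher and APOA2 lower past both thresholds. The summed blood markers, nearly all of it LYZ, were at 1515 and 1558 against 920.5 and 936 TPM, with CD68 higher past both thresholds, and the endothelial and stromal markers were between 6.42 and 8.33 TPM in all libraries. The part of these markers in the differences of the 9 genes was not tested.

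The genes whose pattern was most like that of MUC13 and TM4SF20 were sought by the root mean square difference of log2(TPM + 0.1) over the 4 libraries, after the sgNS mean of each gene had been subtracted. For MUC13 these were SLPI (0.32), GUCY2C (0.37), TM4SF20 (0.49), CASP5 (0.53) and HABP2 (0.58). For TM4SF20 they were MUC13 (0.49), SAA1 (0.51), SLPI (0.72), GUCY2C (0.83) and SAA4 (0.86). SLPI, a secreted inhibitor of proteases on mucosal surfaces, was listed at 0.14 and 0.17 TPM with sgNS against 11.4 and 11.0 TPM with METTL16 KO. HABP2, a serine protease made in the liver, was listed at 1.06 and 1.43 TPM with sgNS against 46.6 and 45.8 TPM with METTL16 KO, and CASP5, an inflammatory caspase, at 0 with sgNS in both libraries against 3.63 and 3.19 TPM with METTL16 KO. SAA1 was listed at 0 and 0.26 TPM with sgNS against 17.3 and 16.3 TPM with METTL16 KO. For SAA4 the values were 0.1 and 0.29 against 52.3 and 61.2 TPM. SLPI, CASP5, SAA1, SAA4 and TM4SF20 were below 1 TPM in sgNS and passed the filter only through METTL16 KO. The size of their rise depends on the pseudocount of 0.1. With 4 libraries in 2 groups, the root mean square difference finds genes with a rise of like size on this scale and says no more of them.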

How the data were processed

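Bulk RNA-seq of Huh7 was used, with 2 libraries for the non-targeting guide and 2 for the METTL16 guide. The authors deposited TPM values per gene symbol, rounded to 2 decimals. According to the methods, reads were trimmed with Cutadapt, mapped to GRCh38 with STAR and quantified with RSEM, and the unit is called RPKM there, but each library sums to 1000000. Versions, annotation and the strand setting are not given in the sources used here, and the labels name both Ribozero and a stranded mRNA kit. TPM is a share of a fixed total, so that the most abundant genes move all others. The 100 most abundant genes took 32.6% and 32.8% in sgNS and 28.6% and 28.7% in METTL16 KO.

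From the TPM, log2(TPM + 0.1) was fitted with limma 3.58.1 in R 4.3.3 (lmFit, eBayes with trend, no block) for 11971 genes whose mean reached 1 TPM, and p-values were adjusted by Benjamini-Hochberg. Fold changes on this scale understate those of low genes. The smallest p of an exact permutation test of 2 against 2 libraries is above any usual threshold, so p-values rest on the spread shared across genes. Whether the libraries are separate cultures is not stated beyond "biological replicates". The p-values set each difference against the spread between these libraries, in part shared across genes, and against no wider spread. The 9 genes and the lists were chosen with earlier results of these data known. Named genes were the 9 genes, METTL16, up to 3 rises and 3 falls per list, the neighbours and the 5 genes of most like pattern, and any other name was chosen after its values were seen. Some listed genes are not reported here by name. Positions are from GENCODE release 44 (GRCh38), matched for 17740 of 18806 symbols, and promoter windows from RefSeq (GRCh38.p14). Python 3.11.15, pandas 2.3.3 and matplotlib 3.10.9 were used. Alternatives were other pseudocounts, filters, scalings, tests and fold thresholds, the replicate block and leaving out each library.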

Additional observations from a re-analysis of the deposited data

How the results depend on the processing

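Of the 8 tested genes of the 9, 0 of 72 values under the alternatives reversed, and 22 moved by more than 1 SD between replicates. Most of these values could not have reversed. The groups of these 8 genes do not overlap, so no pseudocount and no left-out library can turn a sign. The replicate block leaves the fold change as it is, so only the values with another scaling could have reversed. METTL16 passed an adjusted p of 0.05 as lower in 13 of 13 alternatives, with log2 fold changes from -0.68 to -0.45. Of the 224 list counts under the alternatives, 198 stayed within 1.5 times of the reported count. These include counts that were 0 and stayed 0, such as those of the TM4SF family, where only 1 other gene was tested. The share that stayed is therefore no measure of how firm the other counts are. With a pseudocount of 1 the counts were 0 higher mucins, 1 lower gene of the villin and brush border list, and 1 higher and 1 lower O-glycosylation enzyme, and with 0.01 there were 4 lower tetraspanins. Without the filter there were 2 higher mucins, 20 higher intestinal genes and 1 lower transcription factor, and with a minimum mean of 5 TPM 0 higher mucins and 7 higher intestinal genes, since the filter changes which genes are tested. Median-ratio scaling gave 5 lower tetraspanins. Quantile normalization gave 0 higher mucins, 4 lower tetraspanins and 1 higher O-glycosylation enzyme. A 1.5-fold threshold gave 2 higher and 5 lower tetraspanins, 3 higher galectins, 4 higher and 5 lower genes of the villin and brush border list, 5 lower intestinal genes and 14 higher transcription factors. Leaving out each library gave 2 to 4 lower tetraspanins, 1 to 2 higher galectins, 1 to 3 lower genes of the villin and brush border list, 2 to 4 higher and 1 to 2 lower O-glycosylation enzymes, 10 to 12 higher and 2 to 3 lower intestinal genes and METTL16 values from -0.54 to -0.45. The lone library of a group is then assumed to vary like the other group. Beyond the filter, the fold threshold and the fewer libraries, the cause was not tested.

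Over all genes, 922 higher and 451 lower genes were called, 67.2% of them higher. With median-ratio scaling there were 672 higher and 657 lower genes, 50.6% higher, and with quantile normalization 600 higher and 683 lower, 46.8% higher. Without the filter 1555 genes were higher and 543 lower, with a minimum mean of 5 TPM 575 and 310, and with a 1.5-fold threshold 2330 and 1148.

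Each group holds a library of each replicate number, so the replicate block leaves every log2 fold change as it was. METTL16 thus stayed at -0.50, and only p-values could move. With the block 923 genes were higher and 451 lower, and no list count changed. Whether same-numbered libraries were paired is not stated in the sources used here. The correlation of their deviations from the group means was -0.0445 across 11971 genes. With so few libraries, this value cannot show whether they were paired. The fit with the replicate block leaves 1 residual degree of freedom. The depth is unknown, so the counting error of values near 0, such as those of LGALS4 and of TM4SF20 in sgNS, cannot be estimated.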
